A study of Mus musculus with 24 samples.

Results

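Proteoglycans and matricellular proteins make up much of the non-collagen matrix around mammary cells, and 10 of their genes are described here: Lum, Dcn, Bgn, Sparc, Postn, Fbln1, Fbln2, Thbs1, Thbs2 and Tnc. Their probe sets were found by gene symbol, from a list of genes drawn up with earlier results of these data known. Of 45101 probe sets on the array, 22 are annotated to these symbols alone and all 22 passed the filter on low values. The brightest probe set of each gene stood for it, which gave 10 genes among 13485 tested. Gene expression was measured on 24 Affymetrix arrays, 1 for each sorted sample of 10000 cells, from C57BL6/J mice. The tumour samples came from 5 independent mammary adenocarcinomas (A to E) of mice of genotype Apc+/1572T, in which 1 copy of the Wnt pathway gene Apc is mutant, and the normal samples from 3 pools (F, G and H) of mammary glands of Apc+/+ mice. From each tumour and each pool 3 populations were sorted: Lin-CD29hiCD24+ (called CD29hi here), which the study took as stem cells, Lin-CD29+CD24+ (called CD29+ here), taken as their differentiated counterparts, and the whole lineage-depleted Lin- fraction. The study asked how the CD29hi cells of tumours differ from those of normal glands and how CD29hi cells differ from CD29+ cells in each tissue. The mice received no treatment named in the labels, the labels state neither their age nor the number of glands in a pool, and the tumour mice carry the allele outside the tumour cells too.

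These proteins are secreted and built into or bound onto the matrix. Lumican (Lum), decorin (Dcn) and biglycan (Bgn) are small leucine-rich proteoglycans that bind collagen and set how its fibrils assemble, and decorin and biglycan also bind TGF-beta. Matricellular proteins such as SPARC, periostin, the thrombospondins and tenascin-C add little strength to the matrix and instead modulate adhesion, migration and growth factor signalling, while the fibulins bridge elastic fibres, fibronectin and basement membrane. In the mammary gland fibroblasts are the main source of many of them, and the basal (myoepithelial) cells that face the basement membrane produce some as well, so a level in a sorted population depends on which of these cells it holds.

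Values are log2 signals as deposited, on which 1 unit is a doubling. A signal at or under 2.83, the level below which 40% of all values in the table lie, is called the low band here, and differences that start there understate a change. A gene was called where the limma fit over all 24 arrays gave an adjusted p (Benjamini-Hochberg over 13485 genes) under 0.05, and values after ± are SD for levels and SE for differences. The fit shares 1 estimate of spread per gene over all 6 groups, so an SE need not match the spread of the groups compared. For Thbs2 the SD was 2.37 in tumour Lin- and 0.07 in tumour CD29+ cells. Because each sample is a bulk RNA, fewer cells of a type and less RNA per cell cannot be told apart.

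The marker genes of the cell types that a gate could hold were read first. The mean over 15 measured basal epithelial markers was 9.49 to 10.91 in tumour CD29hi, 9.15 to 9.46 in tumour CD29+ and 9.13 to 10.34 in tumour Lin- cells. It was 12.33 to 12.61 in normal CD29hi cells, against 3.99 to 4.29 in normal CD29+ cells and 7.63 to 10.38 in normal Lin- cells, so normal CD29hi cells carried the basal markers and normal CD29+ cells largely lacked them. The mean over 14 fibroblast markers was 4.77 to 6.27 in tumour CD29hi, 4.41 to 5.81 in tumour CD29+ and 5.43 to 10.31 in tumour Lin- cells, against 6.06 to 7.42, 3.64 to 4.11 and 8.20 to 10.24 in the matching normal populations. The mean over 11 luminal epithelial markers was 7.07 to 8.55 in tumour CD29hi, 8.09 to 11.30 in tumour CD29+ and 7.45 to 10.22 in tumour Lin- cells, against 8.08 to 10.19, 12.03 to 12.12 and 11.64 to 12.18 in the matching normal populations. Single fibroblast markers, chosen here after their values were seen, went apart in normal CD29hi cells: Mfap5 was in the low band on average (2.30) and Col1a1 averaged 3.19, whereas Col3a1 averaged 9.03, Pdgfra 7.04 and Cd34 7.40. The normal CD29hi array of pool F stood apart, with an endothelial marker mean of 9.58 (6.81 and 7.80 in pools G and H) and a leukocyte marker mean of 7.73 (2.77 and 2.90). The normal Lin- array of pool F differed as well, with a basal marker mean of 7.63 (10.38 and 10.10 in pools G and H). The tumour Lin- array of tumour D stood apart with the lowest fibroblast marker mean of its group, 5.43, the other tumours lying between 7.89 and 10.31. The sample numbers in the labels fall into 3 ranges, and the highest range holds all 9 normal arrays and only tumour E, so for tumours A to D this range and the tissue cannot be told apart.

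**Figure D1:**
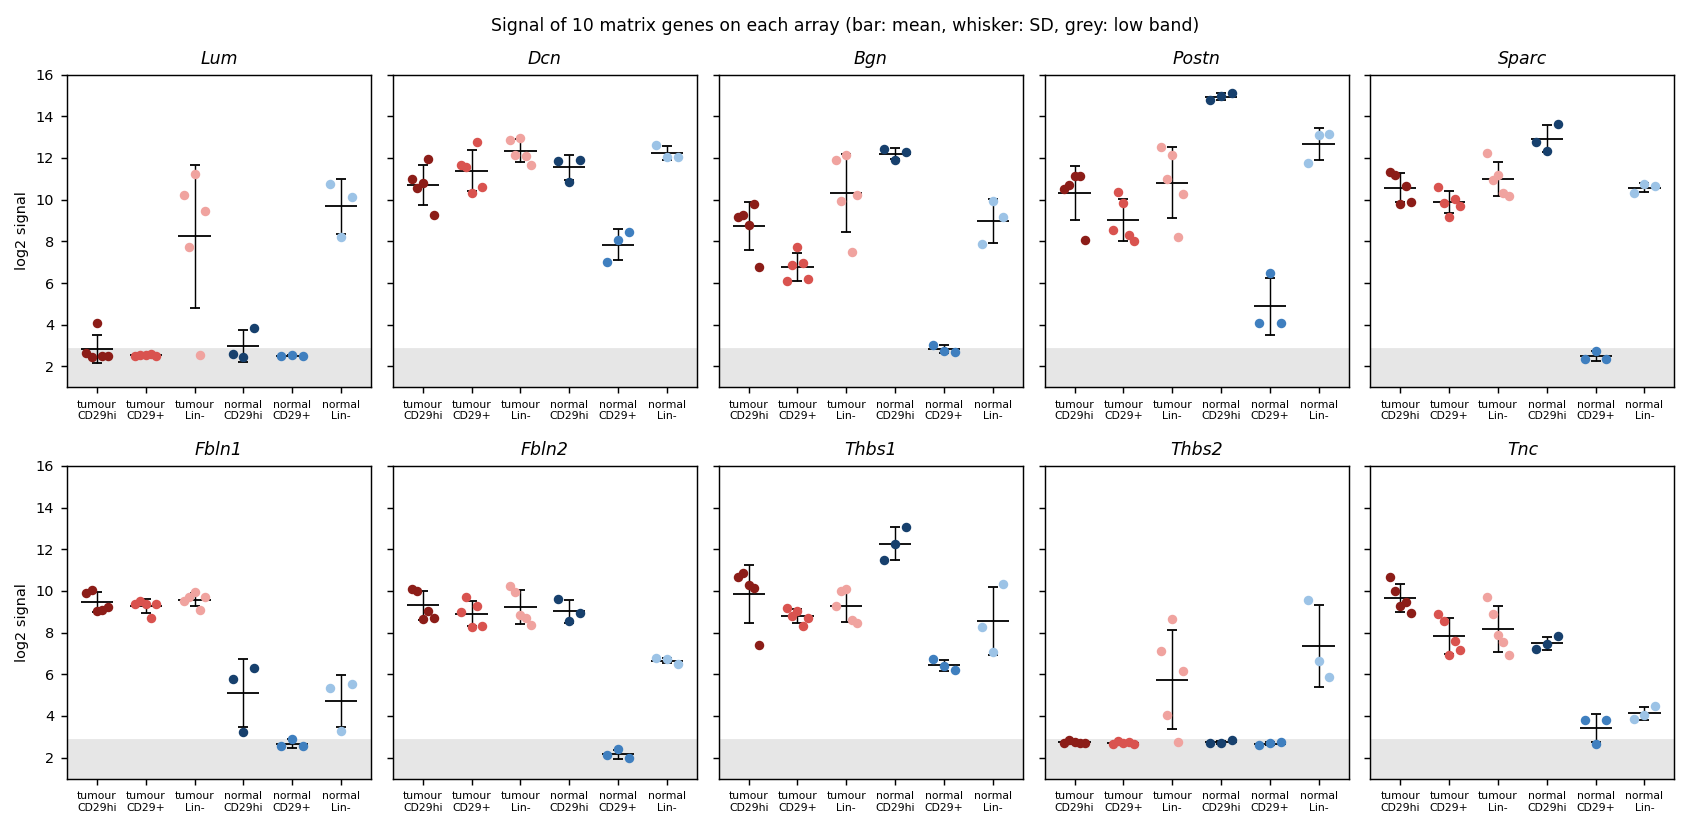
Log2 signal (y axis) of each of the 10 genes on every array, by group (x axis, tumour left of normal). Points are arrays (n = 5 tumours, n = 3 pools), bars are group means, whiskers are SD and the grey area is the low band up to 2.83. Lum and Thbs2 leave the low band almost only in Lin- samples, while Bgn, Postn, Sparc and Thbs1 have their highest group mean in normal CD29hi cells.

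The 10 genes differed in which population held them. A gene was described as basal-gate where it was called higher in CD29hi cells than in both other populations, and as whole-fraction where it was called lower in a gate than in Lin- cells without being called higher in CD29hi than in Lin- cells. In tumours none was basal-gate in the fit without a block, 4 were whole-fraction (Lum, Dcn, Bgn and Thbs2) and 6 were neither. In normal glands 5 genes were basal-gate (Bgn, Sparc, Fbln2, Thbs1 and Tnc), 4 were whole-fraction (Lum, Dcn, Postn and Thbs2) and Fbln1 was neither. The description turns on single calls: Postn was highest in normal CD29hi cells and called higher there than in CD29+ cells, and with the pool as a block it was also called higher than in Lin- cells (adjusted p 0.0219) and so was basal-gate. In the same fit Fbln1 was called lower in normal CD29+ than Lin- cells (adjusted p 0.00804) and so was whole-fraction, and Bgn was no longer called higher in normal CD29hi than Lin- cells without pool F (adjusted p 0.106). With the tumour as a block, Tnc was called higher in tumour CD29hi than Lin- cells (limma adjusted p 0.00424). Tnc kept its call over tumour CD29+ cells in that fit and so was basal-gate in tumours too. In the fit without a block only Lum, Dcn, Thbs2 and Fbln1 of the 10 genes had the same description in both tissues.

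Lum, the proteoglycan that organises collagen fibrils in connective tissue, was a gene of the whole fraction in both tissues. Lum signals were 10.22, 7.74, 11.25, 2.53 and 9.45 in the Lin- samples of tumours A to E, against 10.73, 8.21 and 10.12 in those of pools F to H. Tumours A and E lay within the range of the pools, C above it, B below it and D in the low band. In tumour CD29hi cells Lum was at 2.63, 2.47, 4.07, 2.50 and 2.51, and in tumour CD29+ cells between 2.49 and 2.61. Normal CD29hi cells had 2.59, 2.47 and 3.86 and normal CD29+ cells 2.48 to 2.53. In the low band were 6 of 8 CD29hi samples, the exceptions being tumour C and pool H, and all 8 CD29+ samples.

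Thbs2, a thrombospondin made by fibroblasts that limits vessel growth, followed the same samples. Its signals were 7.12, 4.03, 8.66, 2.74 and 6.15 in the Lin- samples of tumours A to E, against 9.56, 6.62 and 5.87 in those of pools F to H. Every gated sample, of either tissue and gate, lay between 2.59 and 2.87. In the tumour Lin- samples both genes, and Bgn, ran in the order C, A, E, B, D, which is also the order of the fibroblast marker mean (10.31, 10.21, 8.57, 7.89 and 5.43). Over all 24 arrays Lum and Thbs2 had r = 0.94 with each other.

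Dcn, which binds collagen and sequesters TGF-beta, was above the low band on all 24 arrays and differed from Lum in this, although the genes are neighbours on chromosome 10 with 0 protein-coding genes between them (RefSeq). Tumour CD29hi cells had 10.98, 10.55, 10.79, 11.94 and 9.25, tumour CD29+ cells 11.66, 11.59, 10.34, 12.78 and 10.61 and tumour Lin- cells 12.88, 12.13, 12.96, 12.10 and 11.64 (tumours A to E). Normal CD29hi cells had 11.86, 10.86 and 11.92, normal CD29+ cells 7.01, 8.07 and 8.44 and normal Lin- cells 12.63, 12.06 and 12.05 (pools F to H). Only the normal CD29+ samples were set apart from every other group, all 3 below every other sample. The normal CD29hi samples also lay below the normal Lin- samples without overlap. Tumour Lin- array D, where Lum, Thbs2 and Bgn were lowest, still had 12.10.

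Bgn, the collagen- and TGF-beta-binding relative of decorin that also signals through Toll-like receptors, had its highest group mean in normal CD29hi cells, a group that overlapped tumour Lin- cells. Its signals were 9.15, 9.25, 8.80, 9.77 and 6.78 in CD29hi cells of tumours A to E, against 12.41, 11.90 and 12.27 in those of pools F to H, and the groups did not overlap. In CD29+ cells they were 6.11, 6.86, 7.73, 6.95 and 6.21 in tumours, against 3.03, 2.74 and 2.67 in normal pools. The Lin- samples had 11.89, 9.92, 12.14, 7.49 and 10.20 in tumours, against 7.85, 9.94 and 9.19 in normal pools, with overlap. The tumour CD29+ samples were all above the low band, while pools G and H were in it.

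Postn, an integrin ligand that crosslinks collagen and is known from wound and tumour stroma, was highest in normal CD29hi cells. CD29hi cells had 10.52, 10.68, 11.15, 11.13 and 8.09 in tumours A to E, against 14.77, 14.95 and 15.12 in pools F to H. CD29+ cells had 8.55, 10.35, 9.84, 8.32 and 8.01 in tumours, against 4.06, 6.48 and 4.09 in normal pools, again without overlap. Lin- samples had 12.52, 10.98, 12.12, 8.20 and 10.27 in tumours, against 11.77, 13.08 and 13.16 in normal pools. Tumour E was lowest of the tumour CD29hi samples and tumour D of the tumour Lin- samples.

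Sparc, a collagen-binding glycoprotein that weakens cell adhesion, was in the low band in normal CD29+ cells only. CD29hi cells had 11.32, 11.19, 9.81, 10.67 and 9.87 in tumours A to E, against 12.78, 12.35 and 13.63 in pools F to H. CD29+ cells had 10.62, 9.84, 9.16, 10.02 and 9.70 in tumours, against 2.34, 2.75 and 2.36 in normal pools. Lin- samples spanned 10.19 to 12.23 in tumours and 10.31 to 10.74 in normal pools. All 15 tumour samples therefore carried Sparc at 9.16 or more, whichever gate they came from.

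The promoters of the genes that set these patterns apart in normal glands are given next, Bgn, Sparc and Postn as the genes with the largest differences between the gates and Thbs2 as a gene of the Lin- fraction. Each is the 250 bases before the RefSeq start on GRCm38.p6, written 5′ to 3′ on the gene's strand, and capitals mark motif matches. They lie at chrX:73483351-73483600 (Bgn, plus strand), chr11:55420081-55420330 (Sparc, minus strand), chr3:54359017-54359266 (Postn, plus strand) and chr17:14694263-14694512 (Thbs2, minus strand).
Bgn: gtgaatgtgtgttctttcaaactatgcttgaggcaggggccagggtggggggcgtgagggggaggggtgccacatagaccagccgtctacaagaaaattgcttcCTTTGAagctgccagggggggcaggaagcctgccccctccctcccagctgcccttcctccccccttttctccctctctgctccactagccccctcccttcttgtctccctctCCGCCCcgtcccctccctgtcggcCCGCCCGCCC
Sparc: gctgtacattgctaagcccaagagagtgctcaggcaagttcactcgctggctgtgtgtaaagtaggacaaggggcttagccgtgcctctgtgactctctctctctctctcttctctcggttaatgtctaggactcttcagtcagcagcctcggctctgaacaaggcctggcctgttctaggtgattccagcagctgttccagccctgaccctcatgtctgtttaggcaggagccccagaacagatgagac
Postn: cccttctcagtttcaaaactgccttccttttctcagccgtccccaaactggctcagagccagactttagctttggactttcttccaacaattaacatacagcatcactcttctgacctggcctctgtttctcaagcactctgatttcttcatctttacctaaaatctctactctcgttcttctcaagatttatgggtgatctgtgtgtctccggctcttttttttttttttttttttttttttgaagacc
Thbs2: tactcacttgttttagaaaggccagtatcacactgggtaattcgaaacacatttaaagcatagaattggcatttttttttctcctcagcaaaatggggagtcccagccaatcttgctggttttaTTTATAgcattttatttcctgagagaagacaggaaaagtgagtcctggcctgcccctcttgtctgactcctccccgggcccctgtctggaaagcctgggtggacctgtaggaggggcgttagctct

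These windows were searched on both strands for 6 motifs: the TATA box TATAAA, found in 12.4% of 32851 mouse promoter windows of the same length, the AP-1 site TGANTCA (6.75%), the TEAD site GGAATG (12.6%), the TCF/LEF core CTTTGA (13.8%), the E-box CAGGTG (17.2%) and the GC box GGGCGG (32.7%). The Bgn window held 1 CTTTGA, 146 bases before the start, and 3 GC boxes, 34, 10 and 6 bases before it, the nearest 2 overlapping. The Thbs2 window held 1 TATAAA on the opposite strand, 126 bases before the start, and the Sparc and Postn windows held none of the 6. GC content was 64.4% for Bgn, 54% for Sparc, 40.4% for Postn and 46.8% for Thbs2. A match is a run of letters and not a bound site, and nothing follows from a window without one. Of the 10 genes 7 had a promoter entry.

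Thbs1, which activates latent TGF-beta and blocks vessel growth through its receptor CD36, was highest in normal CD29hi cells. CD29hi cells had 10.65, 10.85, 10.27, 10.15 and 7.42 in tumours A to E, against 11.50, 12.25 and 13.05 in pools F to H, without overlap. CD29+ cells had 9.19, 8.77, 9.02, 8.30 and 8.70 in tumours, against 6.71, 6.39 and 6.19 in normal pools, also without overlap. Lin- samples ranged from 8.47 to 10.11 in tumours and from 7.09 to 10.31 in normal pools. Tumour E stood alone among the tumour CD29hi samples, below the other 4 (10.15 to 10.85).

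The fibulins and tenascin-C were raised in tumours in most or all populations. Fbln1, a fibulin of basement membranes and elastic fibres, had 9.92, 10.03, 9.05, 9.08 and 9.21 in CD29hi cells of tumours A to E, against 5.76, 3.25 and 6.28 in those of pools F to H. Its CD29+ samples lay between 8.69 and 9.52 in tumours and between 2.55 and 2.91 in normal pools, and its Lin- samples between 9.09 and 9.93 in tumours and between 3.30 and 5.52 in normal pools. All 15 tumour samples were above all 9 normal samples.

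Fbln2, a fibulin that binds fibronectin and laminins, had 10.11, 10.004, 8.67, 9.04 and 8.72 in tumour CD29hi cells, against 9.61, 8.53 and 8.93 in normal CD29hi cells, which overlap. CD29+ cells had 8.98, 9.71, 8.27, 9.28 and 8.34 in tumours, against 2.11, 2.40 and 1.98 in normal pools, where all 3 were in the low band. Lin- samples lay between 8.36 and 10.23 in tumours and between 6.50 and 6.76 in normal pools.

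Tnc, the tenascin of developing, wounded and tumour tissue, had 10.67, 9.97, 9.27, 9.46 and 8.95 in tumour CD29hi cells, against 7.21, 7.43 and 7.82 in normal CD29hi cells. CD29+ cells had 8.87, 8.58, 6.91, 7.58 and 7.16 in tumours, against 3.82, 2.67 and 3.82 in normal pools. Lin- samples had 9.71, 8.89, 7.88, 7.54 and 6.91 in tumours, against 3.85, 4.07 and 4.46 in normal pools. Every tumour group lay above the matching normal group, and within each tumour the CD29hi sample was above both the CD29+ and the Lin- sample (5 of 5 tumours for each).

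How do CD29hi and CD29+ cells differ in normal glands? Nearly all of the matrix genes were higher in the basal gate, by the largest amounts for Sparc, Postn and Bgn. Sparc averaged 12.92 ± 0.65 in CD29hi and 2.48 ± 0.24 in CD29+ cells (SD, n = 3 each), a difference of 10.44 ± 0.48, and Postn differed by 10.07 ± 0.95 and Bgn by 9.38 ± 0.88 (adjusted p 5.73e-13, 3.03e-08 and 2.69e-08). Altogether 8 of 10 genes were called higher and 0 lower, where 21.3% of all genes tested were called higher and 25.3% lower. The others called were Fbln2 (6.86 ± 0.49), Thbs1 (5.84 ± 0.75), Tnc (4.05 ± 0.61), Dcn (3.71 ± 0.60) and Fbln1 (2.43 ± 0.59), with limma adjusted p between 4.34e-10 and 0.00175. Lum (0.47 ± 1.33, adjusted p 0.845) and Thbs2 (0.07 ± 1.0, adjusted p 0.978) did not pass the test and were at or near the low band on both sides. The groups did not overlap for 8 of the 10, as for 58.2% of all genes. Endothelial markers moved the same way (7 of 9 called higher), as did 7 of 14 fibroblast markers, while of 5 pericyte markers 2 were higher and 1 lower and 7 of 11 luminal markers were lower, and their part in the result was not tested. The actin control signal at the 3′ end exceeded that at the 5′ end, a sign of RNA quality, by 2.53 ± 0.35 in normal CD29hi and 1.61 ± 0.21 in normal CD29+ cells, and with it as a covariate the same 8 genes were called. They were also called without the CD29hi array of pool F.

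**Figure D2:**
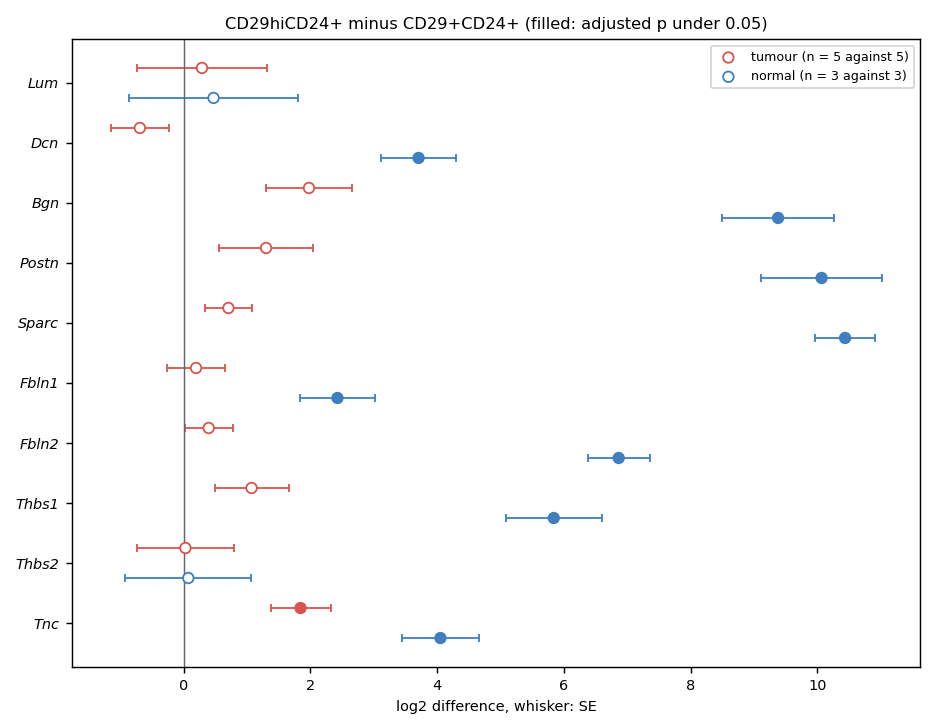
Log2 difference of CD29hiCD24+ minus CD29+CD24+ (x axis) for each gene (y axis), in tumours (red, n = 5 against 5) above normal pools (blue, n = 3 against 3). Filled points had adjusted p under 0.05 and whiskers are SE. The tumour differences lie between -0.69 and 1.98, while the normal differences reach 10.44 for Sparc.

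Against the whole Lin- fraction the normal basal gate was higher for one set of genes and lower for another. Thbs1 averaged 12.27 ± 0.78 in CD29hi and 8.55 ± 1.63 in Lin- cells, a difference of 3.71 ± 0.75 (adjusted p 0.000529), and Tnc (3.36 ± 0.61), Bgn (3.20 ± 0.88), Fbln2 (2.37 ± 0.49) and Sparc (2.35 ± 0.48) were higher as well (adjusted p 0.000182 to 0.00603). Lum (-6.71 ± 1.33, adjusted p 0.000415) and Thbs2 (-4.61 ± 1.0, adjusted p 0.000908) were lower. That is 5 of 10 called higher and 2 lower, where 17% and 23.2% of all genes were. Postn (2.27 ± 0.95, adjusted p 0.0628) missed the threshold and was called with the pool as a block (adjusted p 0.0219), and Dcn (-0.70 ± 0.60) and Fbln1 (0.37 ± 0.59) did not pass. The groups did not overlap for 9 of the 10, as for 48.9% of all genes. The call of Bgn was lost without all arrays of pool F (2.52, limma adjusted p 0.106) and kept without the CD29hi array of pool F alone. In the same arrays 13 of 15 basal markers and 5 of 9 endothelial markers were called higher and 6 of 14 fibroblast and 6 of 11 luminal markers lower.

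The normal CD29+ cells fell below the Lin- fraction for most of the genes. Sparc (-8.09 ± 0.48), Postn (-7.79 ± 0.95), Lum (-7.18 ± 1.33), Bgn (-6.18 ± 0.88), Thbs2 (-4.68 ± 1.0), Fbln2 (-4.50 ± 0.49) and Dcn (-4.41 ± 0.60) were called lower, 7 of 10 where 3.68% of all genes were, with adjusted p between 3.58e-10 and 0.00528. None was called higher (0.512% of all genes were). Fbln1 (-2.05 ± 0.59, adjusted p 0.0514) and Thbs1 (-2.13 ± 0.75, adjusted p 0.163) missed the threshold and passed it with the pool as a block (adjusted p 0.00804 and 0.0451). Tnc differed by -0.69 ± 0.61 (adjusted p 0.867). All 10 were without overlap between these groups, as were 18.4% of all genes. Without pool F, Thbs2 was no longer called (-3.54, adjusted p 0.123). Of the basal markers 14 of 15 were called lower in the same comparison, with 10 of 14 fibroblast and 3 of 9 endothelial markers, and their part in the result was not tested.

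**Figure D3:**
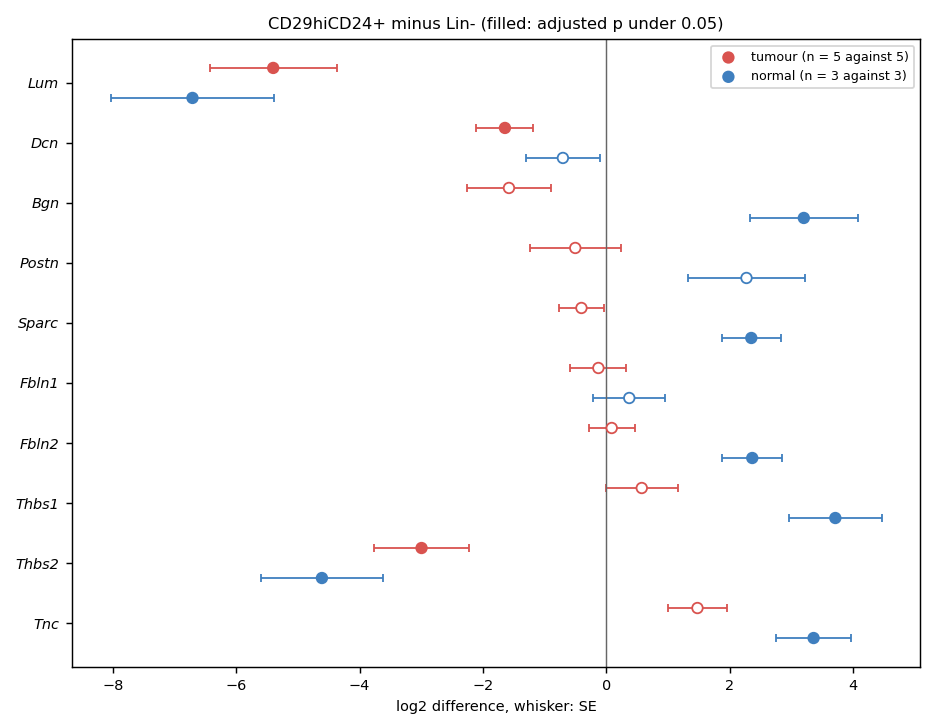
Log2 difference of CD29hiCD24+ minus Lin- (x axis) for each gene (y axis), in tumours (red, n = 5 against 5) above normal pools (blue, n = 3 against 3). Filled points had adjusted p under 0.05 and whiskers are SE. Lum and Thbs2 are lower in CD29hi cells of both tissues, and Bgn, Sparc, Fbln2, Thbs1 and Tnc are called higher in normal CD29hi cells only. The difference between the tissues was itself called for 4 of these 5, not for Tnc.

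In tumours the CD29hi and CD29+ gates differed by a called amount for Tnc alone. Tnc averaged 9.66 ± 0.67 in tumour CD29hi and 7.82 ± 0.87 in tumour CD29+ cells (SD, n = 5 each), 1.84 ± 0.47 apart (limma adjusted p 0.0323), higher in 5 of 5 tumours. It was the only gene of the 10 called, where 2.25% of all genes were called higher and 1.94% lower. Bgn (1.98 ± 0.68, adjusted p 0.102) was higher in 5 of 5 tumours and passed with the tumour as a block (adjusted p 0.0379), a fit that called 13.5% of all genes in either direction against 4.19% without it. Postn differed by 1.30 ± 0.74, Thbs1 by 1.07 ± 0.58, Sparc by 0.71 ± 0.37, Fbln2 by 0.39 ± 0.38, Fbln1 by 0.19 ± 0.45, Dcn by -0.69 ± 0.46, Lum by 0.29 ± 1.03 and Thbs2 by 0.03 ± 0.77, none past the threshold. Postn and Sparc were also higher in 5 of 5 tumours, Thbs1, Fbln2 and Thbs2 in 4, Fbln1 and Lum in 3 and Dcn in 1. The share of all genes higher in 5 of 5 tumours was not counted. Only for Tnc did the groups not overlap, as for 5.05% of all genes. The call of Tnc was lost when tumour B, C, D or E was left out (adjusted p up to 0.102), with only these groups in the fit (0.0853), or with the mean of its probe sets (0.0678). Of the basal markers 2 of 15 were called higher in tumour CD29hi cells, 3 of 11 luminal markers were lower, and of the fibroblast markers 0 of 14 were called in either direction.

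Against tumour Lin- cells, tumour CD29hi cells were lower for Lum (-5.40 ± 1.03, adjusted p 0.00229), Thbs2 (-3.00 ± 0.77, adjusted p 0.0189) and Dcn (-1.64 ± 0.46, adjusted p 0.0307), 3 of 10 where 4.63% of all genes were lower. None of the 10 was called higher (3.74% of all genes), although Tnc (1.48 ± 0.47, adjusted p 0.0573) passed with the tumour as a block (adjusted p 0.00424). Bgn differed by -1.58 ± 0.68 (adjusted p 0.167), and without the Lin- array of tumour D it was called lower (-2.29, adjusted p 0.0161). Postn (-0.50 ± 0.74), Sparc (-0.40 ± 0.37), Fbln1 (-0.13 ± 0.45), Fbln2 (0.09 ± 0.38) and Thbs1 (0.58 ± 0.58) did not pass. Dcn lost its call without tumour A, B, C or E (adjusted p 0.0852 to 0.100), and Thbs2 without A, C or E (0.0836 to 0.105). With only these groups in the fit none of the 3 was called (adjusted p 0.0642 to 0.116). The fibroblast markers were lower in CD29hi cells alongside (11 of 14 called), and their part in the result was not tested.

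Tumour CD29+ cells were called lower than tumour Lin- cells for Lum (-5.69 ± 1.03, adjusted p 0.026) and Bgn (-3.55 ± 0.68, adjusted p 0.037), 2 of 10 where 0.208% of all genes were, and for none were they higher (0.00742%). Thbs2 (-3.02 ± 0.77, adjusted p 0.142) passed with the tumour as a block (adjusted p 0.0419) and without the Lin- array of tumour D (-3.77, adjusted p 0.00443). Both calls were lost without tumour A, B, C or E (adjusted p 0.113 to 0.227). Postn (-1.80 ± 0.74), Sparc (-1.11 ± 0.37), Dcn (-0.95 ± 0.46), Thbs1 (-0.50 ± 0.58), Tnc (-0.36 ± 0.47), Fbln1 (-0.32 ± 0.45) and Fbln2 (-0.31 ± 0.38) did not pass. Of the fibroblast markers 4 of 14 were called lower alongside (median -3.43), and their part in the result was not tested. For none of the 10 genes were the groups without overlap, here or between tumour CD29hi and Lin- cells, as they were for 0.653% and 6.64% of all genes.

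The gate difference itself was tested between the tissues. CD29hi minus CD29+ was smaller in tumours than in normal glands for 8 of 10 genes, where 19.8% of all genes were called lower in this test and 22.2% higher. The change was -9.73 ± 0.61 for Sparc, -8.77 ± 1.20 for Postn, -7.40 ± 1.11 for Bgn and -6.47 ± 0.61 for Fbln2 (adjusted p 1.56e-10, 8.65e-06, 2.45e-05 and 7.46e-08). Lum (-0.18 ± 1.68) and Thbs2 (-0.05 ± 1.26) were not called. Thbs1 changed by -4.77 ± 0.95, Dcn by -4.40 ± 0.76, Fbln1 by -2.23 ± 0.74 and Tnc by -2.21 ± 0.77 (adjusted p 0.00046, 0.000106, 0.0198 and 0.0263). Without the normal CD29hi array of pool F, Fbln1 was no longer called (-1.90, adjusted p 0.0667), and the calls of Fbln1 and Tnc were each lost without several single tumours or pools (adjusted p up to 0.125). Within the range of sample numbers shared by tumour E and the pools, where tumour E is the only tumour, Fbln1 changed by -2.58 and Tnc by -2.26. With the mean of its probe sets Tnc changed by -1.09 (limma adjusted p 0.119). Of the basal markers 14 of 15 changed the same way, as did 7 of 9 endothelial and 7 of 14 fibroblast markers, and their part in the result was not tested.

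The difference of CD29hi minus Lin- was smaller in tumours for Bgn (-4.78 ± 1.11, adjusted p 0.00239), Sparc (-2.75 ± 0.61, adjusted p 0.00155), Thbs1 (-3.14 ± 0.95, adjusted p 0.014) and Fbln2 (-2.28 ± 0.61, adjusted p 0.00669), 4 of 10 where 15.8% of all genes were called lower and 19.9% higher. Postn (-2.78 ± 1.20, adjusted p 0.078) and Tnc (-1.88 ± 0.77, adjusted p 0.0632) passed with the tumour or pool as a block (adjusted p 0.0284 and 0.00776). Dcn (-0.94 ± 0.76) and Fbln1 (-0.50 ± 0.74) were not called. Lum (1.31 ± 1.68) and Thbs2 (1.62 ± 1.26) were not called either, with 95% intervals from -2.19 to 4.81 and from -1.01 to 4.24. Leaving out pool F ended the call of Fbln2 (-2.03, limma adjusted p 0.0515) and leaving out pool G that of Thbs1 (-2.41, limma adjusted p 0.0938). Without the CD29hi array of pool F alone the call of Fbln2 was kept. In the same test 9 of 15 basal, 6 of 9 endothelial, 3 of 5 pericyte and 2 of 14 fibroblast markers were called lower.

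Between tumour and normal CD29+ cells the matrix genes were higher in tumours almost throughout. Sparc averaged 9.87 ± 0.53 in tumour and 2.48 ± 0.24 in normal CD29+ cells (SD, n = 5 and n = 3), a difference of 7.39 ± 0.43, and Fbln2 differed by 6.75 ± 0.43 and Fbln1 by 6.59 ± 0.52 (adjusted p 1.49e-11, 7.45e-11 and 1.91e-09). Tnc (4.39 ± 0.55), Postn (4.14 ± 0.85), Bgn (3.96 ± 0.79), Dcn (3.56 ± 0.53) and Thbs1 (2.37 ± 0.67) were higher too, with adjusted p between 1.30e-06 and 0.00689. In all 8 of 10 were called higher, where 16.4% of all genes were called higher and 27.1% lower, and none was lower. The same 8 genes were those without overlap between the groups, against 44.8% of all genes. Lum (0.04 ± 1.19) and Thbs2 (0.05 ± 0.89) were at or near the low band on both sides. Of the basal markers 9 of 15 were called higher in tumour CD29+ cells, of the fibroblast markers 4 of 14 higher and 1 lower, and of the luminal markers 2 of 11 higher and 7 lower (median -3.21), and their part in the result was not tested. Within the range of sample numbers shared by tumour E and the 3 pools, where tumour E is the only tumour array, Thbs1 differed by 2.27. With that range as a block, where only tumour E shares a range with the pools, Thbs1 was not called (1.25, limma adjusted p 0.181).

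**Figure D4:**
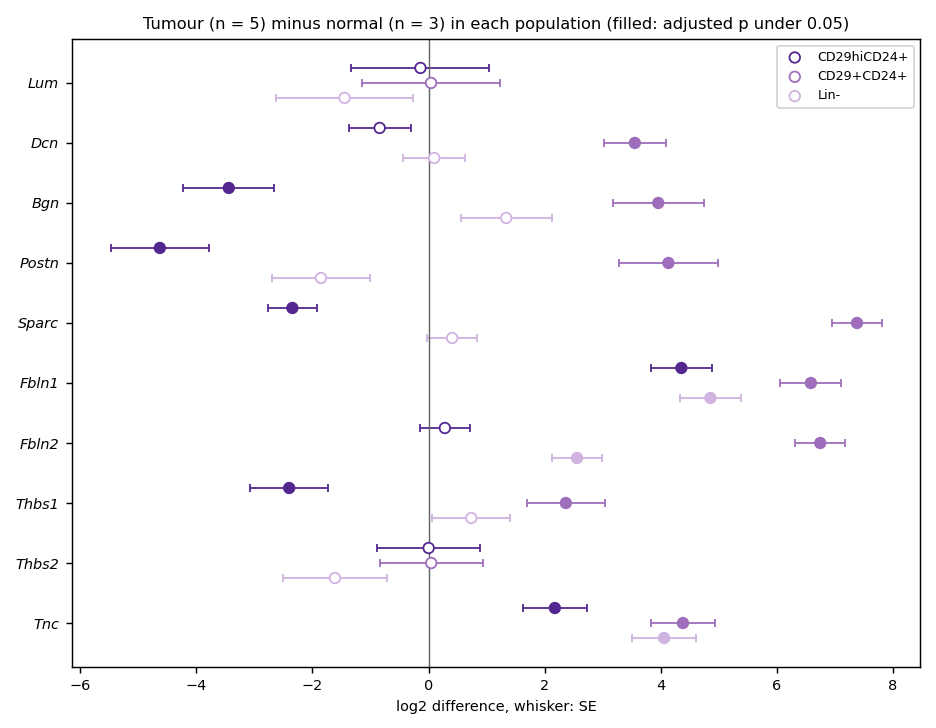
Log2 difference of tumour (n = 5) minus normal (n = 3) on the x axis for each gene on the y axis, in CD29hiCD24+, CD29+CD24+ and Lin- cells. Filled points had adjusted p under 0.05 and whiskers are SE. Bgn, Postn, Sparc and Thbs1 are lower in tumour CD29hi and higher in tumour CD29+ cells, while Fbln1 and Tnc are higher in tumours in all 3 populations.

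Tumour CD29hi cells had lower Bgn, Postn, Sparc and Thbs1 and higher Fbln1 and Tnc than normal CD29hi cells. Postn averaged 10.31 ± 1.28 in tumour and 14.94 ± 0.17 in normal CD29hi cells, a difference of -4.63 ± 0.85 (adjusted p 0.000197), and Bgn differed by -3.44 ± 0.79, Thbs1 by -2.40 ± 0.67 and Sparc by -2.35 ± 0.43 (adjusted p 0.00152, 0.0074 and 0.000186). Fbln1 averaged 9.46 ± 0.48 in tumour and 5.10 ± 1.62 in normal cells, 4.36 ± 0.52 apart (adjusted p 1.53e-06), and Tnc differed by 2.18 ± 0.55 (adjusted p 0.00327). That made 2 of 10 higher and 4 lower, where 15.6% and 22.9% of all genes were, and these 6 were the genes without overlap, against 37% of all genes. Dcn (-0.84 ± 0.53), Fbln2 (0.28 ± 0.43), Lum (-0.14 ± 1.19) and Thbs2 (0.00 ± 0.89) were not called. In both gates 6 genes were called between tumour and normal, and 4 of these, Bgn, Postn, Sparc and Thbs1, had opposite signs. Of all genes 38.6% were called in CD29hi and 43.5% in CD29+ cells. The shares called in both gates, or with opposite signs, were not counted. All 9 endothelial markers and 5 of 14 fibroblast markers were lower in tumour CD29hi cells, 6 of 15 basal markers were lower and 4 higher, 5 of 11 luminal markers were lower and 2 higher, and their part in the result was not tested. Without the normal CD29hi array of pool F the same 6 genes were called. Within the range shared by tumour E and the pools, where tumour E is the only tumour array, Tnc differed by 1.47 and Dcn by -2.29. With the range as a block, where only tumour E shares a range with the pools, Dcn was called lower (-1.82 ± 0.56, limma adjusted p 0.0128).

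In the whole Lin- fraction 3 genes were higher in tumours, Fbln1 (4.86 ± 0.52), Tnc (4.06 ± 0.55) and Fbln2 (2.56 ± 0.43), with adjusted p 2.51e-07, 4.64e-06 and 7.27e-05, where 13.9% of all genes were called higher and 26.6% lower. None was called lower, and the groups did not overlap for these 3, as for 38.7% of all genes. Dcn (0.10 ± 0.53) and Sparc (0.41 ± 0.43) had small differences, with 95% intervals from -1.02 to 1.21 and from -0.48 to 1.30. Postn (-1.85 ± 0.85, adjusted p 0.0896), Thbs2 (-1.61 ± 0.89), Lum (-1.45 ± 1.19), Bgn (1.34 ± 0.79) and Thbs1 (0.74 ± 0.67) did not pass. Without the Lin- array of tumour D, Bgn was called higher (2.05, adjusted p 0.0150), without tumour C Thbs2 was called lower (-2.34, adjusted p 0.0297), and with the range of sample numbers as a block Postn was called lower (-3.11, adjusted p 0.0139). In that block fit only tumour E shares a range with the pools. Of the basal markers 8 of 15 were called higher and 6 lower, of the luminal markers 2 of 11 higher and 7 lower (median -4.35), and of the fibroblast markers 1 of 14 lower, and their part in the result was not tested.

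**Figure D5:**
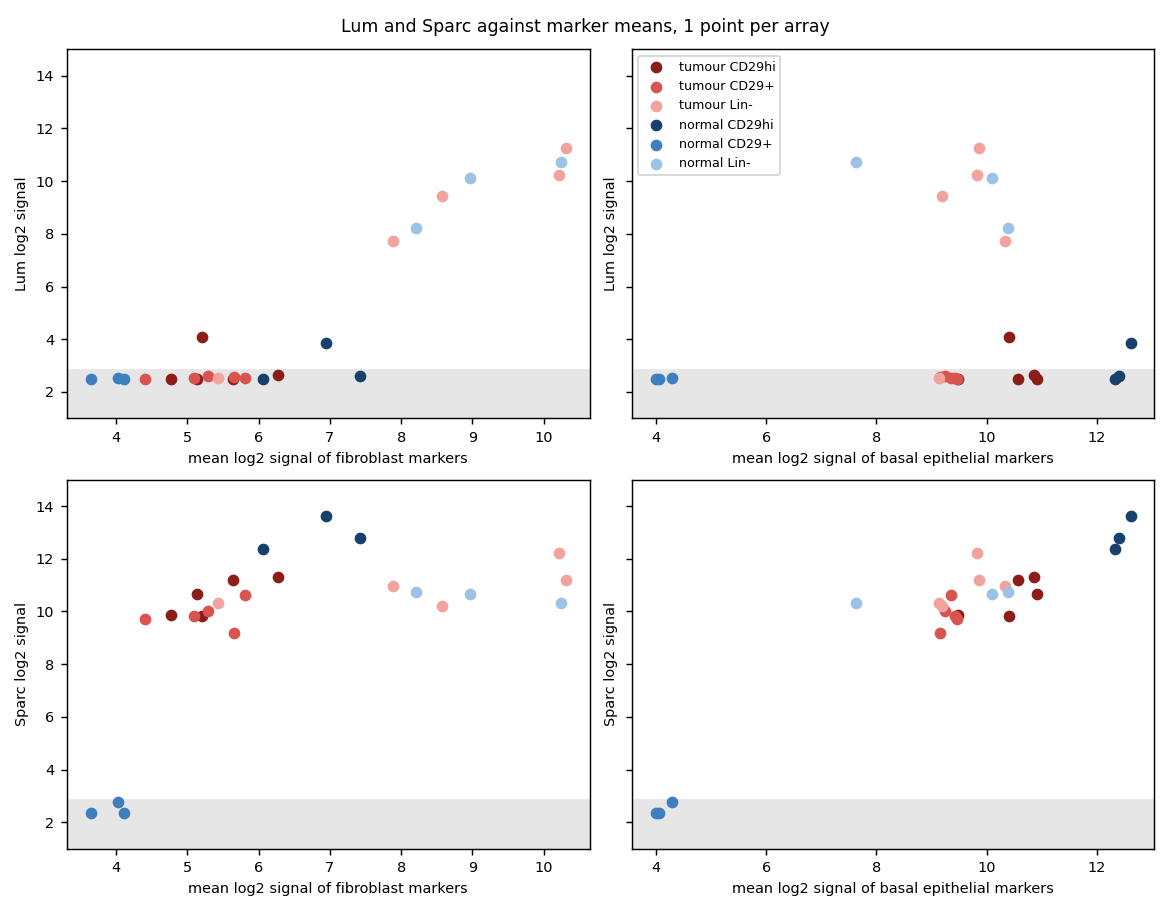
Log2 signal of Lum (upper row) and Sparc (lower row) on the y axis against the mean log2 signal of the fibroblast markers (left) and of the basal epithelial markers (right) on the x axis, 1 point per array (24 arrays), coloured by group. Lum is high on the arrays with the highest fibroblast means (r = 0.91), and Sparc goes with the basal mean (r = 0.95).

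Set beside the marker means over the 24 arrays, the genes differed in whether they ran nearer the fibroblast or the basal mean. These correlations are descriptions without a test, since arrays of the same group, tumour or pool are not independent and group differences make up much of them. Lum had r = 0.91 with the fibroblast mean and 0.08 with the basal mean, and Thbs2 had 0.89 and 0.01. Dcn had 0.71 and 0.68. Bgn (0.69 fibroblast, 0.87 basal), Postn (0.65 and 0.85), Sparc (0.56 and 0.95), Fbln2 (0.34 and 0.86), Thbs1 (0.30 and 0.85) and Tnc (0.02 and 0.66) were nearer the basal mean, and Fbln1 was close to neither (0.14 and 0.45). Within the 15 tumour arrays the order changed for some: Bgn had r = 0.85 with the fibroblast mean and 0.46 with the basal mean, and Sparc 0.67 and 0.50, while Thbs1 (0.22 and 0.84) and Tnc (0.02 and 0.80) were still nearer the basal mean. Within the 9 normal arrays Bgn had 0.64 and 0.99. The mean of the 5 pericyte markers ran as closely with several genes: in normal arrays its r was 0.98 with Bgn, 0.97 with Sparc (basal 0.97) and 0.98 with Fbln2 (basal 0.97), and in tumour arrays 0.79 with Sparc. The endothelial mean in normal arrays had r = 0.94 with Fbln2, 0.91 with Bgn, 0.85 with Tnc (basal 0.84) and 0.79 with Fbln1 (basal 0.67). With Lum its r was 0.05 in normal and 0.80 in tumour arrays. Over all 24 arrays it had -0.33 with Fbln1 and -0.12 with Tnc.

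The genes with patterns most like each member, by Pearson r over the 24 arrays, were named by the same measure. For Lum they were Abca8a (r = 0.98), Lama2 (0.97) and Ctsk (0.96), and for Thbs2 they were Lama2 (0.99), Dpep1 (0.98) and Loxl1 (0.97). Dcn was followed by Vim (0.91), Col5a2 (0.91) and Pdgfra (0.90). Bgn had Fstl1 (0.92), Postn (0.92) and Igfbp7 (0.90), Postn had Cxcl14 (0.94), Tgfbr3 (0.94) and Mylk (0.94), and Sparc had Lhfp (0.97), Cald1 (0.97) and Pdpn (0.96). Nearest to Fbln1 were Chl1 (0.97), Dsc3 (0.97) and Klf4 (0.97), and to Fbln2 Chst11 (0.98), Plod2 (0.98) and Emb (0.97). Thbs1 had Serpinb6b (0.92), Cpa6 (0.92) and St3gal6 (0.91), and Tnc had Vnn1 (0.97), Vsnl1 (0.96) and Prss12 (0.96).

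Other genes of the same kinds moved in part alongside. Of 13 other proteoglycans measured, 6 were higher and 0 lower in normal CD29hi than CD29+ cells, among them Fmod, a collagen-binding relative of lumican (9.95 ± 1.23), and Vcan, a large hyaluronan-binding proteoglycan (7.45 ± 0.55), where 21.3% of all genes were higher and 25.3% lower, and the median of the 13 was 2.20, against -0.03 over all genes. In tumour CD29hi against normal CD29hi cells 6 of 13 were lower and 0 higher, where 22.9% and 15.6% of all genes were, with Fmod at -6.77 ± 1.10. Of 17 other matricellular and fibulin genes, 9 were higher and 0 lower in normal CD29hi than CD29+ cells (median 2.66), with Fstl1 at 9.11 ± 0.74 and Ccn2 (CTGF) at 8.70 ± 1.0. Between tumour and normal CD29hi cells 9 of these 17 were lower and 2 higher (median -1.65, against -0.01 over all genes), with Fbln5 at -5.30 ± 0.73, Ccn4 at -4.81 ± 0.59 and Tgfbi, a TGF-beta-induced integrin ligand, at 4.56 ± 0.61. In CD29+ cells 6 of 17 were higher in tumours and 0 lower, where 16.4% and 27.1% of all genes were, with Tgfbi at 8.05 ± 0.61 and Ccn2 at 6.0 ± 0.89. Between tumour CD29hi and CD29+ cells Tgfbi alone of the 17 was called (2.28 ± 0.53, limma adjusted p 0.0194).

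Of 19 receptors of these proteins and TGF-beta ligands, 10 were higher and 1 lower in normal CD29hi than CD29+ cells, where 21.3% and 25.3% of all genes were, and 0 were called between the same gates of tumours, where 2.25% of all genes were higher and 1.94% lower. Cd36, a thrombospondin receptor, was 6.54 ± 0.69 higher in normal CD29hi than CD29+ cells, and Itga9, a tenascin-binding integrin subunit, 5.26 ± 0.68 higher. Of 9 endothelial markers 7 were called higher in that comparison, and of 3 adipocyte markers 2 were higher and 1 lower. In tumour against normal CD29hi cells 3 of 19 were higher and 9 lower, where 15.6% and 22.9% of all genes were, with Cd36 at -5.94 ± 0.62, Itga9 at -5.16 ± 0.61 and Tgfb1 at 1.86 ± 0.43. All 9 endothelial and 2 of 3 adipocyte markers were called lower there, with 0 higher. The part of these markers in the receptor results was not tested. In tumour against normal CD29+ cells 6 were higher and 4 lower, where 16.4% and 27.1% of all genes were, with Egfr at 5.78 ± 0.34, Lrp1, the endocytic receptor that clears thrombospondin, at 3.26 ± 0.27 and Tlr4, a receptor for biglycan, at -4.94 ± 0.60.

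Genes with several probe sets mostly gave the same calls on the bright ones. All 3 Bgn probe sets were called higher in normal CD29hi than CD29+ cells, higher in tumour than normal CD29+ cells and lower in tumour than normal CD29hi cells, and 2 of 3 Sparc probe sets did the same. All 3 Fbln1 probe sets were called higher in tumours in both gates. Both Thbs1 probe sets were called lower in tumour than normal CD29hi cells, but only 1 was called higher in tumour CD29+ cells. The second Tnc probe set was dim (mean 3.99) and was not called between tumour and normal in any population (0.87 ± 0.37 in CD29+ cells, adjusted p 0.0679), and the dim second sets of Dcn (3.28) and Fbln2 (3.55) and the third of Sparc (2.68) were not called in these comparisons either. A further probe set annotated to both Pald1 and Thbs1 was not used.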

How the data were processed

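Cells of each population were sorted and total RNA was amplified, labelled and hybridised to Affymetrix mouse arrays, per the labels' protocols. The deposited table holds log2 signals made by the authors, with RMA, GCRMA and Partek named in the submitters' processing notes without versions or order. Signals ran from 0.489 to 16.1, array medians from 3.26 to 3.41, and no depth applies: the number of arrays limits the precision. Of 45101 probe sets, 34945 have 1 annotated gene and 932 several. Probe sets above the low band (2.83) in at least 3 arrays were kept (24278), with the set of highest mean for each of 13485 genes. R 4.3.3 and limma 3.58.1 (lmFit, contrasts.fit, eBayes with trend) fitted 6 group means to all 24 arrays, and 11 contrasts were adjusted with Benjamini-Hochberg over all genes. On data simulated for tumour minus normal in CD29hi cells, 44 of 100 changes of 1 log2 unit and 88 of 100 of 2 units were found among 13485 genes. The simulated samples had independent noise and few changed genes, whereas 38.6% of all genes were called in the real comparison. Samples of the same tumour also correlate, so these rates need not hold for the real data.

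Samples of the same letter come from the same tumour or pool, so the letters pair them. Deviations from the group means had a median r of 0.578 between samples of the same tumour (15 pairs) and -0.167 otherwise (60 pairs), and 0.142 (9 pairs) and -0.071 (18 pairs) for pools. Titles of 2 normal samples lack the pool letter, and H was given to them as the only letter left. The rule for named genes took all 10 members in every contrast, companion genes from among the called ones with the 3 highest and 3 lowest differences in each list, and the 3 genes with the most similar pattern to each member. Members and lists were chosen with earlier results of these data known. Alternatives tried were other filters, quantile normalization, mean of probe sets, the letter or the sample number range as a block, only the groups compared, no trend, actin 3′ to 5′ signal as a covariate, and leaving out replicates.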

Additional observations from a re-analysis of the deposited data

Results flagged for a closer look

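In 4 of 30 groups of 5 tumour samples 1 sample lay far from the other 4, by a gap rule that chance meets in about 1 in 20 groups (1.5 of 30). Lum was at 4.07 in CD29hi cells of tumour C, the other tumours lying between 2.47 and 2.63. Those 4 values are in the low band, where the spread is small and the rate of 1 in 20 need not hold. Postn was at 8.09 in CD29hi cells of tumour E, against 10.52 to 11.15 in the others, and Thbs1 at 7.42 in the same sample, against 10.15 to 10.85. Fbln1 was at 8.69 in CD29+ cells of tumour D, against 9.36 to 9.52 in the others.

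The difference between CD29hi and CD29+ cells was smaller in tumours than in normal glands, by the limma test of the difference itself, for 8 genes: Sparc (-9.73), Postn (-8.77), Bgn (-7.40), Fbln2 (-6.47), Thbs1 (-4.77), Dcn (-4.40), Fbln1 (-2.23) and Tnc (-2.21). In that test 19.8% of all genes were called lower and 22.2% higher. The difference between CD29hi and Lin- cells was smaller in tumours for 4 genes: Bgn (-4.78), Thbs1 (-3.14), Sparc (-2.75) and Fbln2 (-2.28). Here 15.8% of all genes were called lower and 19.9% higher. Bgn and Sparc were above Lin- in normal glands (3.20 and 2.35) and below it in tumours without a call (-1.58 and -0.40). The call of Fbln2 was lost without pool F and that of Thbs1 without pool G.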

How the results depend on the processing

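Over 1880 recomputed differences of the 10 genes, 1790 stayed on the same side of the threshold, 52 lost the call, 38 gained it and 0 called ones turned their sign. Of the 1880, 110 were within the highest range of sample numbers, where each tumour group is 1 array. No spread between tumours is measured there, so calls from that fit are not given singly. Members called higher in tumour CD29hi than CD29+ cells, 1 in the reported fit (Tnc), were 0 with the mean of probe sets, 0 with only the groups compared, 2 with the tumour as a block (Bgn added), and 0 to 1 with a replicate left out. Higher than Lin- in tumour CD29hi cells was 0 reported, and 1 (Tnc) with the stricter filter, with quantile normalization, with the tumour as a block and with the number range as a block, and 0 to 1 with a replicate left out. Lower than Lin- in tumour CD29hi cells was 3 reported, 0 with only the groups compared and 1 to 4 with a replicate left out. In tumour CD29+ against Lin- cells lower calls were 2 reported, 1 without the low-value filter, 0 with only the groups compared and 0 to 3 with a replicate left out. Between tumour and normal Lin- cells lower calls were 0 reported, 1 with the number range as a block and 0 to 1 with a replicate left out. The cause of these changes was not tested. The paired fits changed no other call than those given beside the results.

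Counts over all genes moved by over 1.5 times as follows. Between tumour CD29hi and CD29+ cells 565 genes were called, and 149 (only the groups compared) to 1817 (tumour as a block) otherwise, and between tumour CD29hi and Lin- cells 1128, and 465 to 2400 in the same fits. Without tumour A, B, C or E the first count was 207 to 340, and without B, C or E the second was 469 to 745. Between tumour CD29+ and Lin- cells 29 were called, with 0 (only the groups compared) to 122 (tumour as a block) otherwise, and 1, 3, 83 and 1 without tumour B, C, D and E. Between normal CD29+ and Lin- cells 565 were called, and 906 with the pool as a block. Counts within the highest number range are not given, since each tumour group there is 1 array. Normal CD29hi against Lin- cells gave 5420 genes, and 3491 without pool F. Quantile normalization moved the share of calls that were higher to 53.6% in tumour against normal CD29hi cells (40.5% reported), 69.5% in tumour CD29hi against CD29+ cells (53.8%) and 61.7% against Lin- cells (44.7%), and the median of all genes in the test of the CD29hi minus CD29+ difference to 0.16 (0.04). Leaving out the Lin- array of tumour D or the CD29hi array of tumour E was chosen after seeing the data, and without the CD29hi array Dcn was not called between tumour CD29hi and Lin- cells (-1.28, limma adjusted p 0.0993). The number of arrays, 3 to 5 a group, limits what could be called.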

Other observations

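In the whole Lin- fraction the companion lists had called genes in both directions between tumour and normal glands, where 13.9% of all genes were called higher and 26.6% lower. Of 13 other proteoglycans 2 were called higher in tumours and 1 lower, with Esm1 (endocan) at 4.52 ± 0.57 and Ogn, a small leucine-rich proteoglycan, at -3.20 ± 1.16 (limma difference ± SE). Of 17 other matricellular and fibulin genes 2 were higher and 1 lower, with Tgfbi at 2.72 ± 0.61, and of 19 receptors and ligands 4 were higher and 5 lower, with Egfr at 2.66 ± 0.34 and Tlr4 at -4.77 ± 0.60. In normal glands CD29hi cells were higher than Lin- cells for Fbln7 (4.45 ± 0.22) and lower for Ogn (-5.26 ± 1.30). The actin 3′ minus 5′ signal averaged 2.03 ± 0.30 in tumour CD29hi and 2.06 ± 0.36 in tumour CD29+ cells (SD, n = 5 each).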
